A study of Mus musculus with 36 samples.

Results

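The myelinated optic nerve (MON) was examined 6 weeks into bead-induced glaucoma. The 4 libraries used were all those labelled as MON at 6 weeks of glaucoma (2 libraries) or as naive MON (2 libraries), of 36 libraries in the series. The series also holds retina and unmyelinated optic nerve (UON), and nerves taken 3 days and 2 weeks after optic nerve crush or bead injection. RNA was measured by sequencing, as an estimated read count for each of 55487 genes.

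All mice were C57BL/6 animals of 2 to 4 months, with no transgene. In the glaucoma group, microbeads were injected into the anterior chamber of the left eye only, which obstructs aqueous outflow and raises intraocular pressure, and the nerve of that eye was taken 6 weeks later. The segment used was the first wholly myelinated stretch behind the transition zone. The naive group had no procedure on either eye. Each library held RNA of 2 mice of the same sex, combined after extraction, so that each group was 1 female pool and 1 male pool. With that design the difference between sexes and the difference between pools cannot be told apart, and every p-value below measures the spread between such pools.

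The myelinated optic nerve carries the axons of retinal ganglion cells behind the eye to the brain. Oligodendrocytes wrap these axons in myelin, astrocytes tile the space between them, and microglia, the resident macrophages, survey the tissue and clear debris. Beads in the anterior chamber stress the axons at the nerve head, and the myelinated segment lies downstream of that site. In RNA from whole tissue, fewer cells of a type and less RNA per cell cannot be told apart.

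The 4 libraries held between 17757595 and 78054205 counts in all, the shallowest being the naive male pool. The other 4 MON libraries of the bead model held 23305383 to 76726426. Log2 levels correlated at r = 0.979 across genes between the 6-week pools and at 0.969 between the naive pools. The tissue label was checked on FPKM, a level scaled to both gene length and library size, which allows comparison between genes. Mbp, the major myelin protein of compact myelin, stood at 38608 and 34496 FPKM in the naive female and male pools and at 37552 and 35298 FPKM at 6 weeks. Gfap, the astrocyte intermediate filament, followed at 2760 to 4335 FPKM over the 4 libraries. Xist and 4 Y-linked genes matched the labelled sex in all 8 MON libraries of the bead model.

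In what follows, levels are CPM (counts scaled to the same total in every library, adjusted by TMM), and where 4 values are given the order is naive female, naive male, 6-week female and 6-week male. Differences are log2 fold changes of 6 weeks minus naive from edgeR, fitted on the 8 MON libraries of the bead model with group and sex as terms. A gene was called when its Benjamini-Hochberg adjusted p was under 0.05 and its log2 fold change was over 1 in size.

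The 6-week female pool stood apart from its male counterpart in genes of surface epithelium, the stratified lining of skin, conjunctiva and cornea. The summed level of 29 such genes was 12.3, 24.2, 3393 and 24.5 CPM. The female pool at 6 weeks was high and the male pool lay at the naive level. Dsc2, a desmosomal cadherin, was listed at 0, 0, 51.2 and 0 CPM. Krt14, a keratin of basal epithelial cells, was at 0.391, 0.934, 929 and 0.148 CPM. Krt15, also a basal keratin, was at 0.849, 2.31, 775 and 4.36 CPM. Krt4 and Krt13, the keratin pair of non-cornified stratified epithelium, reached 660 and 213 CPM in the 6-week female pool and 2.25 and 1.07 CPM in the male pool.

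Of 54 keratin genes in the table, 13 exceeded 10 CPM in the 6-week female pool, 0 did in the 6-week male pool and 0 in either naive pool. Their summed level was 14.3, 31.8, 4108 and 32.2 CPM. Krt12, the keratin of corneal epithelium, was at 0.991 CPM in the 6-week female pool, far below the other keratins named here. The MON male pool at 2 weeks of glaucoma also carried an epithelial signal, with 2823 CPM summed over the 29 genes. It held 44.2 CPM of Dsc2, 1371 CPM of Krt15 and 12 keratins over 10 CPM. Its keratin make-up differed in part from that of the 6-week female pool. Krt14, Krt17 and Krt16 were at 38.3, 6.24 and 0.770 CPM in the 2-week male pool against 929, 185 and 62.6 CPM. Scaled to library totals, these pools were the 2 highest of the 36 libraries at 3293 and 2918 CPM, the next highest was a UON library at 305 CPM, and the retina libraries had a median of 19.5 CPM.

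**Figure D1:**
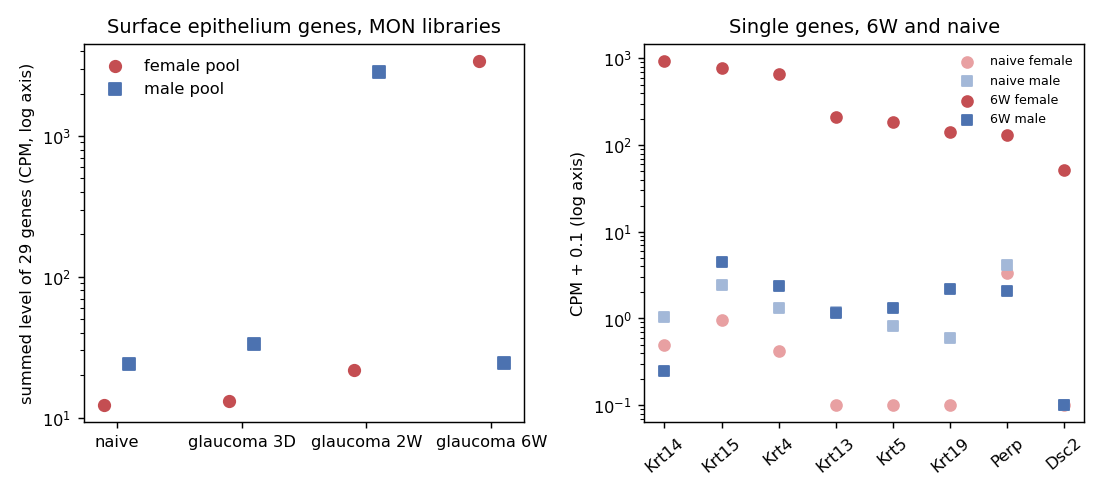
Surface epithelium genes in the MON. Left, summed level of 29 genes (CPM, log axis) in each of the 8 MON libraries of naive and bead glaucoma mice, each a pool of 1 sex. Right, levels of 8 of these genes (CPM + 0.1, log axis) in the naive and 6-week pools. The 6-week female pool (3393 CPM) and the 2-week male pool (2823 CPM) stand far above the other 6 libraries.

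Between the 6-week pools, 259 genes were over 10 times higher in the female pool than in the male pool, and 33 of these were keratins or among the 29 epithelial genes. In the other direction there were 50 genes, 0 of them epithelial. The fitted median log2 fold change of the 29 genes was 4.97, yet 4.83 between the female pools and 0.22 between the male pools, and it was -0.39 in a fit without the 6-week female pool. None of the 29 was called by edgeR. For this reason, levels below are given by pool, and the medians of some lists are also given without the 6-week female pool.

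Against the naive nerve, edgeR called 0 of 22960 genes tested (0% higher, 0% lower), with a lowest adjusted p of 0.639. The absence of calls was not particular to 6 weeks. The same edgeR fit called 0 genes against naive at 3 days (lowest adjusted p 0.117) and 0 at 2 weeks (0.124). An unadjusted p under 0.05 was reached by 1127 genes (4.91%), 515 of them higher at 6 weeks (2.24%) and 612 lower (2.67%). With no true difference, 1148 genes would be expected to reach it. Against naive, 1854 genes did at 3 days and 2017 at 2 weeks, so the 3 times were not equally close to that number. At 6 weeks, a log2 fold change over 1 was estimated for 8.28% of genes and under -1 for 16.3%. DESeq2, the tool the study used, called 65 genes at the same thresholds, 32 higher and 33 lower. The 95% confidence interval of the log2 fold change reached a median of 1.17 to either side of the estimate over all genes. Over the 10106 genes with a mean of at least 10 CPM in a group it reached 0.62, a 1.54-fold difference. These intervals are for single genes without adjustment and give no limit of detection. Larger differences were not called either, such as that of Srxn1 at -1.998, with an edgeR adjusted p of 0.639. Fits that left 1 pool at 6 weeks depended on which pool it was. Without the 6-week male pool, the epithelial keratins Krt13 and Krt5 differed by 14.2 and 15.1. Gm29216, at 0, 5598, 2520 and 0 CPM, differed by -21.1 without the 6-week female pool and by 19.5 without the male pool.

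As a background for the lists below, both 6-week pools lay above both naive pools for 19.0% of all genes tested and below both for 21.2%. The median log2 fold change over all genes tested was -0.02. None of the list members was called by edgeR in either direction, so the counts of members with separated pools and the list medians are descriptions.

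Myelin and oligodendrocyte genes stood close to the naive level. The summed level of 17 genes was 155695, 125333, 137661 and 138978 CPM, so both 6-week values lay between the naive values. Mbp was at 86351, 72407, 81454 and 77978 CPM, with a log2 fold change of 0.00 (95% interval -0.73 to 0.73, adjusted p = 1). Mobp, a further protein of myelin, differed by -0.15 and Trf, the transferrin that oligodendrocytes make, by 0.11, with overlapping pools for each.

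Of the 17 genes, 1 lay above both naive pools and 7 below both, and the list median was -0.15 (-0.11 without the 6-week female pool). The member above was Ugt8a, which makes the myelin lipid galactosylceramide, at 268, 444, 591 and 734 CPM (0.91, interval 0.25 to 1.58, adjusted p = 0.849). Cldn11, the tight junction protein of myelin, was at 472, 699, 331 and 359 CPM (-0.75, interval -1.53 to 0.02). Ugt8a and Cldn11 were picked after their values were seen, as the members farthest from 0 in each direction.

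Genes of oligodendrocyte precursors and newly formed oligodendrocytes had a median of -0.20 over 15 genes, 2 of them above both naive pools and 6 below both. Olig2, the lineage transcription factor, was at 27.2, 54.4, 23.6 and 16.4 CPM, a log2 fold change of -0.99 (interval -1.83 to -0.15) that did not pass correction (adjusted p = 0.849). Both 6-week values lay under both naive values, but the naive pools themselves differed by more than the female pools did across groups. Olig1, its relative, was at 778, 714, 597 and 603 CPM (-0.31), and Sox10, which drives myelin genes, at 298, 307, 200 and 262 CPM (-0.37). Bcas1 of newly formed oligodendrocytes (0.34) and Ptprz1 of precursors (0.31) were on the other side of 0, with overlapping pools.

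Astrocyte genes did not form a pattern in either direction. Gfap was at 10750, 8209, 13206 and 11238 CPM, higher in both 6-week pools than in both naive pools. Its log2 fold change was 0.37 (interval -0.30 to 1.03, edgeR adjusted p = 0.851). The study's discussion stated that Gfap did not rise in either injury model. Of 14 astrocyte genes, 5 lay above both naive pools and 2 below both, with a median of 0.07. Slc1a3, the glutamate transporter GLAST, was at 1223, 662, 1350 and 1330 CPM (0.52), while the glutamine synthetase gene Glul differed by 0.03.

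Among genes that mark reactive astrocytes, the 13 PAN-reactive genes (raised in many kinds of injury) had a median of 0.31, the 14 A1-specific genes (inflammatory type) 0.30 and the 13 A2-specific genes (ischaemic type) 0.47. They lay above both naive pools in 5, 4 and 6 members, and below both in 1 member of each list. S1pr3, a sphingosine phosphate receptor of the PAN list, was at 697, 370, 945 and 832 CPM (0.74), whereas Serpina3n, a serpin of reactive astrocytes, was at 751, 837, 576 and 669 CPM (-0.35). Timp1, a metalloproteinase inhibitor the study named for early glaucoma, was at 4.09, 8.24, 11.04 and 6.49 CPM, with the male pool at 6 weeks between the naive pools (0.31, adjusted p = 0.949). S100a10 of the A2 list, a calcium-binding protein that epithelia also express, was at 34.5, 61.8, 102 and 54.9 CPM, high in the pool with the epithelial signal, whose part in the A2 median was not tested. Without the 6-week female pool the A1 median was 0.07 and the A2 median 0.39.

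Microglial genes mostly stood above the naive level, without a call by edgeR. Of 16 genes of homeostatic microglia, 10 lay above both naive pools and 0 below both (against 19.0% and 21.2% of all genes), with a median of 0.46 and of 0.41 without the 6-week female pool. Their summed level was 1963, 2038, 2955 and 2834 CPM. Csf1r, the growth factor receptor microglia depend on, was at 385, 333, 471 and 509 CPM (0.45, interval -0.36 to 1.26). Ctss, a lysosomal protease of microglia, was at 454, 491, 729 and 680 CPM (0.57, interval 0.02 to 1.13, adjusted p = 0.849). Both genes were separated between the groups, with the sexes close to each other within a group. Selplg, the P-selectin ligand, overlapped (0.15).

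Tmem119 and Sall1, genes that mark resident microglia, differed less. Tmem119 was at 156, 134, 159 and 168 CPM (0.16) and Sall1 at 46.4, 43.8, 47.7 and 45.4 CPM (0.04). Gpr34, a lysophosphatidylserine receptor, was at 21.1, 23.9, 42.9 and 45.7 CPM (0.98, interval 0.16 to 1.80). These 3 genes were named after their values were seen.

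The 19 genes of disease-associated and phagocytic microglia had a median of 0.46, with 11 above both naive pools and 0 below both, but the median between female pools was 0.94 and between male pools 0.27. It also depended on the naive library used, being 0.02 without the naive female pool and 1.09 without the naive male pool. Ctsd, the lysosomal aspartyl protease cathepsin D, was at 1666, 1634, 3265 and 2120 CPM (0.64), and Ctsb, cathepsin B, at 1168, 922, 1552 and 1301 CPM (0.46). Cd9, a tetraspanin, differed by 0.28 with separated pools. Apoe, the lipid carrier, was at 2688, 12719, 2931 and 9542 CPM, so that the pools of each group differed by more than the groups (-0.25).

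Cd68, a lysosomal glycoprotein of phagocytes, was at 38.7, 49.2, 74.6 and 45.6 CPM, with the 6-week male pool inside the naive range (0.33, adjusted p = 0.883). Fcgr3, an immunoglobulin Fc receptor, was at 56.3, 59.5, 83.7 and 76.2 CPM (0.46, adjusted p = 0.849). Fcrls, a microglial Fc receptor-like gene, was at 11.5, 18.6, 29.9 and 11.3 CPM (0.07). These 3 genes were named by the study for glaucoma nerves in comparisons that share the naive pools, so they are not independent evidence of a direction.

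Galectin-3 (Lgals3), a carbohydrate-binding protein of activated microglia, was the member of this list that DESeq2 called. It was at 200, 257, 638 and 458 CPM, higher in both 6-week pools than in both naive pools. The log2 fold change was 1.24 (interval 0.61 to 1.87), with an adjusted p of 0.849 by edgeR and 0.00917 by DESeq2. It was 1.67 between the female pools and 0.83 between the male pools, where the epithelial genes were at the naive level. Surface epithelium also expresses galectin-3, and the part of that signal in the female value was not tested. Its level was 934 and 722 CPM at 3 days and 743 and 722 CPM at 2 weeks in the female and male pools, so the 6-week pools were the lowest of the glaucoma pools. In GRCm38 the gene lies at chr14:47367751-47386160 on the plus strand. Clec7a, the phagocytic receptor dectin-1, had a similar pattern at 3.55, 3.63, 14.2 and 8.83 CPM (1.61, interval 0.57 to 2.65). Both genes were named after their values were seen.

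**Figure D2:**
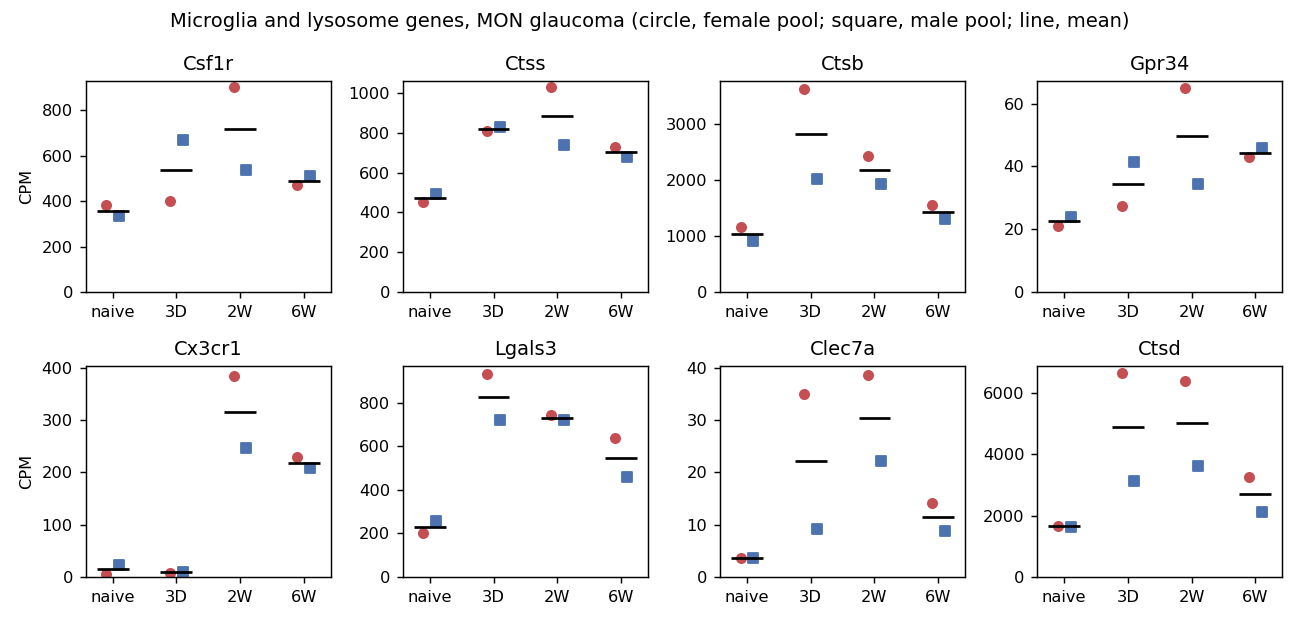
Levels (CPM, linear axis from 0) of 8 microglial and lysosomal genes in the naive and glaucoma MON libraries, each point a pool of 1 sex (circle, female; square, male) and each line the mean of 2 pools. Csf1r and Ctss lie modestly above naive at 6 weeks, Lgals3 lies at 638 and 458 CPM against 200 and 257 CPM in the naive pools, and Cx3cr1 lies at 2 separate levels.

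Cx3cr1, the fractalkine receptor of microglia, had the largest difference of the microglial genes, and its pools did not behave like those of its neighbours in the list. It was at 6.00, 23.2, 230 and 208 CPM, a log2 fold change of 4.05 (interval 2.62 to 5.47, adjusted p = 0.849 by edgeR and 6.36e-11 by DESeq2). At 3 days both pools were at 7.05 and 9.99 CPM and at 2 weeks at 385 and 247 CPM. Over the 12 MON libraries of the series, scaled to library totals, 6 lay under 30 CPM with the highest at 24.4 CPM, and 6 lay over 100 CPM with the lowest at 160 CPM, with none between. The gap also ran inside a group: the pools of 2 weeks after crush differed 25.9-fold, with 0.5 CPM added to each. The gene model in these files (chr9:119901616-120069879, minus strand, GRCm38) overlaps Wdr48, Gorasp1, Ttc21a, Csrnp1 and Xirp1, and whether reads were assigned differently between libraries was not tested. Cx3cr1 was named after its values were seen.

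Lysosomal genes stood above naive in both sexes. Of 19 genes, 15 lay above both naive pools and 0 below both, with medians of 0.41 in the fit, 0.41 between female pools and 0.38 between male pools. Leaving out any of the 4 libraries in turn kept the median between 0.33 and 0.45. Ctsc, cathepsin C, was at 47.4, 35.8, 88.3 and 64.2 CPM (0.87, interval 0.39 to 1.35), and was named after its values were seen. Lamp1, a lysosomal membrane protein, was at 568, 670, 949 and 1003 CPM (0.65), while Psap, the prosaposin gene, overlapped between groups (-0.05). The list shares Ctsb, Ctsd and Ctss, among others, with the microglial lists, and oligodendrocytes and astrocytes express lysosomal genes too.

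**Figure D3:**
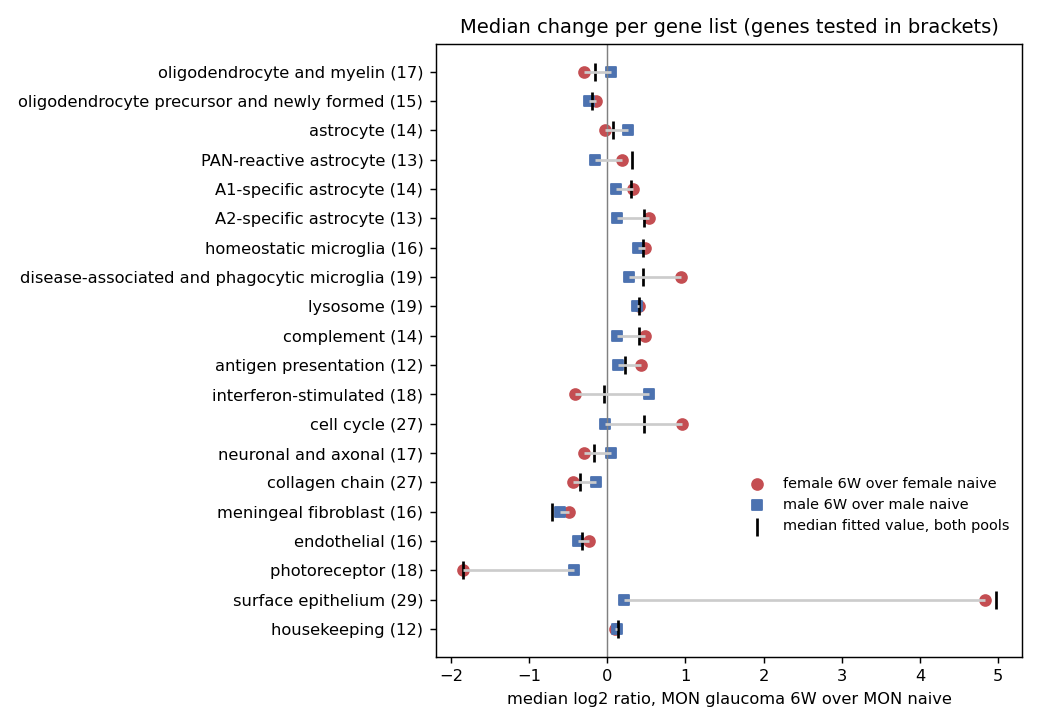
Median log2 ratio of 6 weeks to naive for 20 gene lists, between the female pools, between the male pools, and in the edgeR fit over both. Lysosome (0.41 and 0.38) and homeostatic microglia (0.48 and 0.39) lie above 0 between the female pools and between the male pools, and photoreceptor genes (-1.85 and -0.42) below 0 in both, with no test between the sexes.

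Other immune lists were less uniform. Complement genes had a median of 0.41 over 14 genes, 6 above both naive pools and 0 below both, and of 0.17 without the 6-week female pool. The C1q chains C1qb (0.33) and C1qc (0.25) and C4b (0.28) overlapped between groups, and C3, the central component, was at 208, 250, 417 and 250 CPM (0.59), so the male pool equalled its naive counterpart. Antigen presentation had a median of 0.23 over 12 genes, 5 above both. Its leading member H2-D1, a class I heavy chain, was at 642, 656, 1148 and 908 CPM (0.66, interval 0.12 to 1.20, adjusted p = 0.849). B2m, the class I light chain, was higher in both 6-week pools than in both naive pools (0.43).

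Interferon-stimulated genes had a median of -0.04, and 0 of 18 had separated pools in either direction. The naive pools differed widely from each other here: Ifit3, an interferon-induced antiviral gene, was at 275 and 90.02 CPM in them and at 230 and 170 CPM at 6 weeks. Chemokines had a median of 0.27 over 12 genes, 3 above both and 3 below both. Cxcl12, the homing chemokine of stromal cells, was at 33.4, 28.5, 11.02 and 20.3 CPM (-1.08, interval -2.17 to 0.00), and Cx3cl1, the fractalkine ligand of Cx3cr1, at 38.5, 26.1, 61.4 and 45.7 CPM (0.73). Border macrophages (median 0.36, 8 genes), neutrophils and monocytes (0.04, 9 genes) and lymphocytes (0.12, 13 genes) gave sums of at most 90.3 CPM in any of the 4 libraries. Ltf and Plac8 of the neutrophil list, at 33.8 and 18.4 CPM in the 6-week female pool against 0.721 and 0.951 CPM in the male pool, moved with the epithelial genes, whose part in these values was not tested.

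Cell cycle genes had a median of 0.47 over 27 genes, 4 above both naive pools and 1 below both. The female pools differed by 0.96 and the male pools by -0.03, and the median was -0.19 without the naive female pool. Pcna, the sliding clamp of DNA replication, was at 58.0, 64.9, 63.4 and 66.1 CPM (0.07), and the helicase subunits Mcm2, Mcm3 and Mcm5 differed by 0.31 to 0.35. Immediate early genes had a median of 0.26 over 20 genes and p53 targets 0.13 over 17, with 6 and 5 members above both naive pools.

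Genes of the leptomeninges and the collagen matrix lay below the naive level, again without a call. Of 16 meningeal fibroblast genes, 0 lay above both naive pools and 9 below both, with a median of -0.70, of -0.78 without the 6-week female pool and of -0.32 without the naive female pool. Ptgds, the prostaglandin D synthase secreted by leptomeninges and oligodendrocytes, was at 2625, 6387, 1421 and 1770 CPM (-1.34, interval -2.24 to -0.43, adjusted p = 0.849). Mgp, a matrix protein that binds calcium, was at 103, 191, 45.2 and 90.6 CPM (-1.12, interval -1.80 to -0.44). Col1a2 and Dcn of the same list, collagen I and decorin, differed by -0.30 and -0.03. The naive male pool had the highest summed level (7104 CPM), then the naive female pool (3290), the 6-week male pool (2265) and the 6-week female pool (1882). Ptgds alone made up most of each sum, at 6387, 2625, 1770 and 1421 CPM in that order. The sums therefore say little about the other genes of the list. How much sheath was taken with each nerve was not given in the sources used here.

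Collagen chains had a median of -0.35 over 27 genes, 2 above both naive pools and 10 below both. Col3a1, a fibrillar collagen, was at 80.5, 60.7, 45.0 and 40.9 CPM (-0.72), and Col1a1 at 65.3, 30.4, 30.4 and 27.4 CPM (-0.69). Matrix glycoproteins and proteoglycans had a median of -0.07 over 30 genes, 3 above and 8 below. Within that list Timp2, a metalloproteinase inhibitor, was at 250, 220, 430 and 470 CPM (0.95, interval -0.07 to 1.97), whereas Sparc differed by -0.11.

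The matrix receptors and their regulators were split. Of 26 integrin subunits, 10 lay above both naive pools and 4 below both, with a median of 0.33 that was 0.03 without the 6-week female pool. Itgav, the alpha v chain, was at 67.4, 70.3, 87.3 and 110 CPM (0.52), and Itgb8, its partner in activating TGF-beta, at 143, 99.5, 146 and 165 CPM (0.38). The 23 genes of TGF-beta and BMP signalling had a median of 0.07, with 10 above and 6 below. Of its ligands, Tgfb3 was at 150, 81.5, 203 and 213 CPM (0.86, interval 0.00 to 1.72) and Tgfb2 at 250, 215, 336 and 257 CPM (0.36). Of its mediators and targets, chosen after their values were seen, the receptor Tgfbr1 was at 34.6, 26.3, 59.9 and 62.98 CPM (1.04), the shared mediator Smad4 at 18.3, 24.2, 12.01 and 8.42 CPM (-1.06) and the inhibitor Smad7 at 24.8, 43.0, 17.0 and 13.9 CPM (-1.06). Each of the 3 had separated pools and an adjusted p of 0.849.

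Vascular lists were at or under the naive level. Of 16 endothelial genes, 0 lay above both naive pools and 7 below both, with a median of -0.32, and Slc2a1, the glucose transporter of the blood-brain barrier, was at 300, 284, 249 and 235 CPM (-0.27). Pericyte and smooth muscle genes had a median of -0.16 over 11 genes. In that list Rgs5, a pericyte regulator of G protein signalling, was at 33.1, 34.6, 20.1 and 13.4 CPM (-1.02, interval -1.84 to -0.21), while Tagln, a smooth muscle actin-binding protein, was at 19.1, 45.6, 83.4 and 67.0 CPM (1.20).

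The cell bodies of the axons lie in the retina, so the nerve holds few of their transcripts. The 17 neuronal and axonal genes had a median of -0.18, with 3 above both naive pools and 6 below both. Tubb3, a neuronal tubulin, was at 340, 334, 227 and 323 CPM (-0.30), and Nefl, the light neurofilament, at 103, 62.4, 51.6 and 81.4 CPM (-0.40). The 11 genes of the node of Ranvier and its flanks, which glia and axons share, had a median of -0.19, with 1 above and 5 below. Cntn2, an adhesion protein beside the node, was at 646, 635, 572 and 487 CPM (-0.29) and Nfasc, which anchors the paranodal junction, at 280, 278, 222 and 275 CPM (-0.17). Cholesterol synthesis genes, which myelinating cells use heavily, had a median of -0.06 over 22 genes, with Hmgcs1 at -0.10 and Fdft1 at -0.09. Schwann cell genes (median 0.60 over 5 genes) included Cdh19 at 65.3, 28.6, 59.9 and 77.6 CPM.

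Stress lists varied in size. Heat shock and unfolded protein genes had a median of 0.52 over 14 genes, with 7 above both naive pools and 1 below both, and of 0.55 without the 6-week female pool. Hspa8, a constitutive chaperone, was at 1480, 974, 1751 and 1871 CPM (0.58), and Hspa5, the chaperone BiP of the endoplasmic reticulum, at 641, 356, 732 and 954 CPM (0.76). Medians were -0.16 for 11 glucocorticoid targets, 0.09 for 11 NRF2 targets and metallothioneins, 0.22 for 10 hypoxia genes, 0.12 for 15 clock genes and 0.14 for 12 housekeeping genes. Tsc22d3, a glucocorticoid target the study named for glaucoma nerves, was at 258, 233, 278 and 309 CPM (0.25, adjusted p = 0.856). Pla2g3, a phospholipase named in the same way, was at 19.9, 7.47, 4.15 and 7.77 CPM, with the male pools equal (-1.29, interval -2.73 to 0.16).

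**Figure D4:**
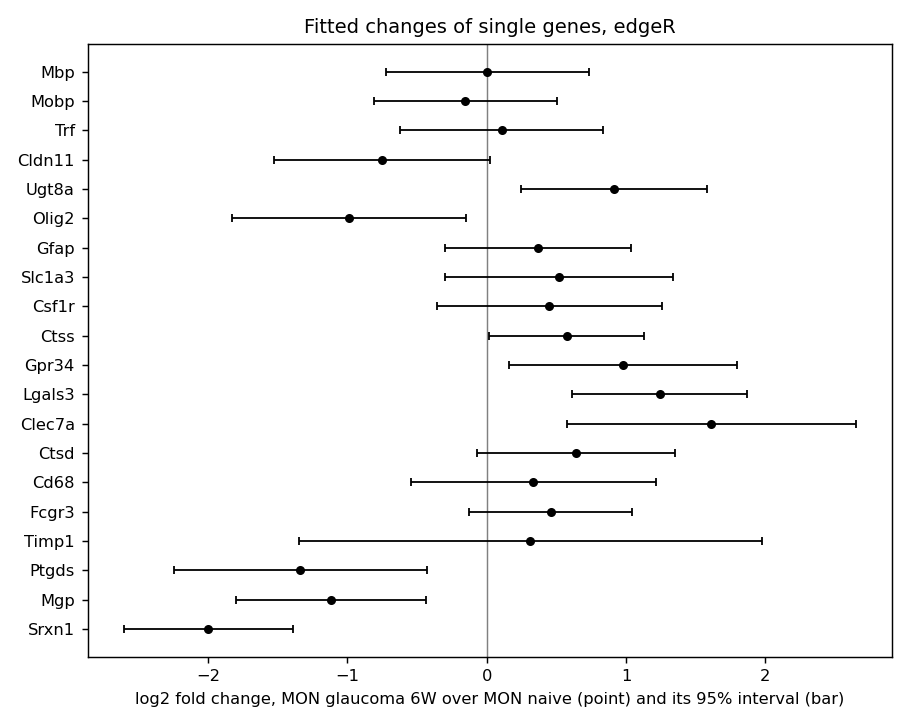
Log2 fold change of 6 weeks minus naive, with an approximate 95% confidence interval derived from the edgeR test (8 MON libraries), for 20 genes described in the text. Mbp and Gfap straddle 0, while the intervals of Lgals3 (0.61 to 1.87) and Srxn1 (-2.60 to -1.39) do not.

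Genes of tissues next to the nerve were checked beside these results. The 18 photoreceptor genes summed to 190.5, 54.9, 41.0 and 46.6 CPM, so the naive female pool stood above the other 3. Their median was -1.84 in the fit, -1.85 between female pools and -0.42 between male pools, and 12 of 18 lay below both naive pools. Red blood cell genes summed to 504, 443, 161 and 828 CPM (median -0.07 over 6 genes). Skeletal muscle (0.41 over 12 genes), lens (0.12 over 6), pigment cell (0.28 over 3) and adipocyte genes (3.40 over 3, all under 1 CPM) gave no sum above 86.9 CPM in any of the 4 libraries.

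The 65 genes called by DESeq2 were of several kinds. Among the 32 higher genes (0.151% of 21251 tested), 11 were over 10 times higher in the 6-week female pool than in the male pool, including Krt19, Krt78, Dsc2 and Sprr1a. Both naive pools were at 0 for 12 of the 32, and both 6-week pools were at 0 for 10 of the 33 lower genes (0.155%). In 22 higher and 30 lower genes the groups were separated and the higher pool of each group was at most 10 times the lower plus 5 CPM, a rule that low levels pass easily. For 40 of the 65, the fold between the groups exceeded the largest fold found between the pools of any MON group, with 0.5 CPM added to every level. DESeq2 picked the 65 for a large difference against the spread of the same pools. The counts of separated genes and of larger folds are therefore descriptions and no support for the calls. The share of all genes with such a larger fold was not computed. Lower calls included mt-Nd1 and mt-Atp6, genes of the mitochondrial genome, at 5218 and 3660 CPM in the naive female pool and listed at 0 in the naive male pool and both 6-week pools, so these calls rest on 1 library.

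Among genes whose pools were separated between the groups, Srxn1 and Kmt5a had the lowest p-values by edgeR. Srxn1, sulfiredoxin, repairs oxidised peroxiredoxins. It was at 59.7, 54.4, 12.5 and 16.4 CPM, lower in both 6-week pools, with a log2 fold change of -1.998 (interval -2.60 to -1.39, adjusted p = 0.639 by edgeR and 5.60e-08 by DESeq2). The other MON libraries of the bead model held 37.5 to 62.7 CPM, so the 6-week pools were the lowest of the 8. Scaled to library totals, the pools of any MON group differed at most 1.46-fold, with 0.5 CPM added to each. Outside the MON the pools of a group could differ more. The naive retina held 12.5 CPM in the female and 67.9 CPM in the male pool. The UON 2 weeks after crush held 29.5 and 94.2 CPM. Why was not tested. Srxn1 lies at chr2:152105516-152111376 on the plus strand of GRCm38. The other members of the NRF2 list did not share its size, as Gclm, of glutathione synthesis, differed by 0.54 and the metallothionein genes Mt1 and Mt2 by -0.15 and -0.19. Kmt5a, a histone H4 lysine methyltransferase, was at 38.6, 46.9, 8.90 and 11.7 CPM (-2.05, interval -2.70 to -1.41, DESeq2 adjusted p = 4.31e-07).

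Further DESeq2 calls at moderate level lay in both directions. Chtop, an mRNA export factor, was at 56.9, 43.5, 121 and 122 CPM (1.28). Dynll1, a dynein light chain, was at 64.2, 71.3, 153 and 177 CPM (1.28). Msi2, an RNA-binding protein of progenitor cells, was at 36.6, 44.8, 13.9 and 10.2 CPM (-1.75). Each of these genes had separated pools, so that the female and the male pools necessarily differed in the same direction. The part of the epithelial signal in their female values was not tested. Gldn, gliomedin, a protein of peripheral nodes, was at 2.76, 2.64, 15.6 and 7.01 CPM (1.99). The genes of this paragraph and the one before were named after their values were seen.

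Comparing 6 weeks with earlier times asks whether the nerve was still as it was at 2 weeks or 3 days. edgeR called 0 genes against 2 weeks (1119 with an unadjusted p under 0.05, lowest adjusted p 0.141) and 0 against 3 days (1138, 0.133). DESeq2 called 90 genes against 2 weeks (25 higher, 0.118% of genes tested, and 65 lower, 0.306%) and 186 against 3 days (48 higher, 0.218%, and 138 lower, 0.627%). Against 2 weeks, both 6-week pools lay below both earlier pools for 22.4% of all genes and above both for 21.3%. The 2-week male pool carried an epithelial signal in that contrast, as the 6-week female pool did. Against 3 days only the 6-week female pool carried it, and 6 of the 48 higher DESeq2 calls were among the epithelial genes.

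The immune lists differed in how many members lay below the 2-week level, and edgeR called none of their members. Both 6-week pools lay below both 2-week pools for 17 of 18 interferon-stimulated genes (median -1.14), 15 of 19 disease-associated and phagocytic microglial genes (-1.26), 12 of 13 PAN-reactive genes (-0.75) and 11 of 12 antigen presentation genes (-0.71). DESeq2 called Lpl, lipoprotein lipase, at 13.1 and 7.78 CPM at 6 weeks against 156 and 34.4 CPM at 2 weeks (-2.92). It also called Fcrls at -2.14, Cst7, a cystatin of phagocytic microglia, at -2.16 and Ifi44, an interferon-induced gene, at -4.91. In the homeostatic list the median was -0.24, with 8 of 16 below both 2-week pools. The A1-specific list had 9 of 14 members below both 2-week pools, chemokines 7 of 12, complement 6 of 14 and lymphocytes 5 of 13. Neutrophils and monocytes had 2 of 9 and border macrophages 2 of 8. Lower levels than at 2 weeks were not particular to immune lists. Both 6-week pools also lay below both 2-week pools for 16 of 18 photoreceptor genes (-2.62) and 19 of 27 collagen chains (-0.68). Red blood cell genes lay above both in 5 of 6 (2.49).

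Myelin, cholesterol synthesis, heat shock and glucocorticoid genes stood more often above the 2-week level, again with no call by edgeR. Both 6-week pools lay above both 2-week pools for 14 of 17 myelin genes (median 0.46), 17 of 22 cholesterol synthesis genes (0.53), 10 of 14 heat shock genes (0.63) and 8 of 11 glucocorticoid targets (0.87). Tsc22d3 was at 278 and 309 CPM at 6 weeks against 82.8 and 114 CPM at 2 weeks (1.58, DESeq2 adjusted p = 7.49e-07). Mbp differed by 0.30, which DESeq2 did not call either. Other stress lists were split, with 2 of 10 hypoxia genes above both 2-week pools and 2 below both (median 0.20), and with 3 of 11 NRF2 targets and metallothioneins above and 2 below (0.10).

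Against 3 days, collagen genes stood mostly lower at 6 weeks, with no call by edgeR. Of 27 collagen chains, 21 lay below both 3-day pools, against 18.2% of all genes, with a median of -1.10, and DESeq2 called 8 of them, including Col12a1 at 3.70 and 2.23 CPM against 23.6 and 17.7 CPM. Cell cycle genes had a median of -1.93, with 8 of 27 below both 3-day pools. Their summed level was 721 CPM in the 3-day female pool and 158 CPM in the 3-day male pool, against 198 and 130.5 CPM in the female and male pools at 6 weeks, so the 3-day female pool stood apart. Timp1 was at 11.04 and 6.49 CPM against 119 and 18.8 CPM (-2.75, DESeq2 adjusted p = 0.00377), and Cd68 at 74.6 and 45.6 CPM against 255 and 102 CPM (-1.504, DESeq2 adjusted p = 0.0215). Both were lower in both 6-week pools.

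The earlier times were also fitted against naive, and those comparisons share the naive pools with the 6-week one, so their values are only set side by side. In each of them edgeR called 0 genes. The phagocytic microglial list had medians of 1.40 at 3 days, 1.67 at 2 weeks and 0.46 at 6 weeks. The homeostatic list had 0.60, 0.92 and 0.46, and the lysosome list 0.74, 0.62 and 0.41. The cell cycle list had 2.37, 0.11 and 0.47, the first with the high 3-day female pool described above. Collagen chains were at 0.91, 0.44 and -0.35, meningeal genes at 0.63, 0.12 and -0.70, and myelin genes at -0.18, -0.62 and -0.15.

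**Figure D5:**
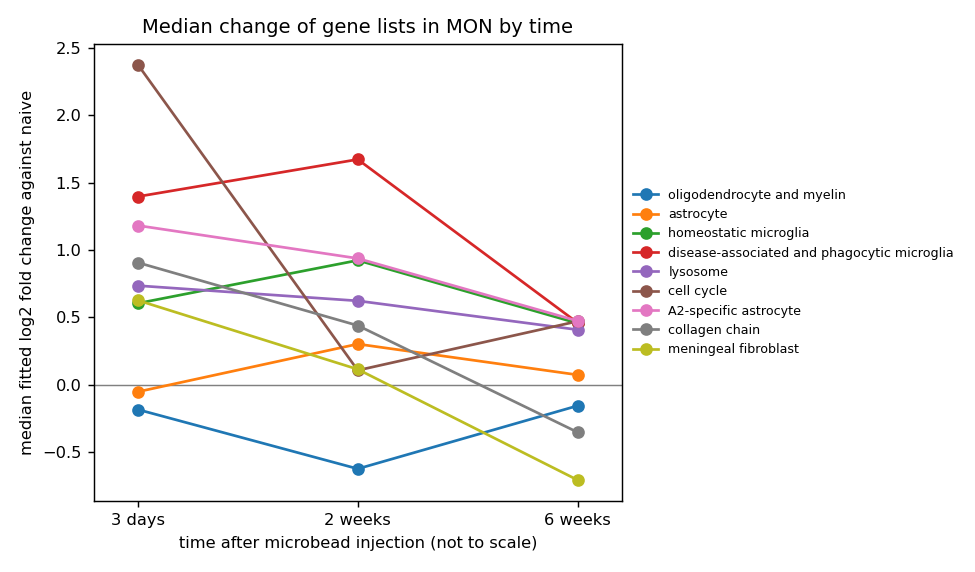
Median log2 fold change against the shared naive pools for 9 gene lists at 3 days, 2 weeks and 6 weeks of bead glaucoma in the MON (edgeR fit, 2 pools a time). The phagocytic microglial list goes from 1.40 and 1.67 to 0.46, and collagen chains from 0.91 to -0.35.

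Whether the 6-week difference was the same in the unmyelinated segment was tested as an interaction on 16 MON and UON libraries, where the MON and UON pools of the same group and sex came from the same mice. edgeR called 0 of 25807 genes (799 with an unadjusted p under 0.05, lowest adjusted p 0.755) and DESeq2 called 27. Of these, 17 had a more positive 6-week difference in the MON than in the UON (0.0725%) and 10 a more negative one (0.0426%). The 17 included 4 epithelial genes. The 6-week UON pools differed in genes of adjacent tissue. Scaled to library totals, meningeal genes summed to 35354.5 CPM in the female and 2794 CPM in the male pool, against 24204 and 16030 CPM in naive UON. Red blood cell genes summed to 451 and 2213 CPM, against 215 and 488 CPM. What part this had in the UON values below and in the interaction was not tested. For homeostatic microglial genes the UON median was 0.30 beside 0.46 in the MON, and for phagocytic microglial genes it was 0.34 beside 0.46. Myelin genes had 0.37 in the UON, where they are less expressed, beside -0.15 in the MON. Interferon-stimulated genes had -0.94 in the UON beside -0.04. Srxn1 differed by 0.02 in the UON beside -1.998 in the MON, an interaction of -1.97 with an edgeR adjusted p of 1.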

How the data were processed

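RNA of the myelinated optic nerve was sequenced in pairs. Per the study's methods, the authors aligned the reads with HISAT2 2.2.1 to GRCm38, assembled them with StringTie 1.3.0, and deposited estimated counts per gene made by the prepDE script, which derives them from transcript coverage. Whether counting used strand was not given in the sources used here. The deposited FPKM values of StringTie, made by the authors for each library, were used for levels between genes and in an alternative, with values slightly below 0 set to 0. No sample column was left without a mapping.

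Genes were tested with the quasi-likelihood test of edgeR 4.0.16 in R 4.3.3, after TMM scaling and a filter of at least 10 counts in the smallest group and 15 in all, on 8 libraries with group and sex as terms and 3 residual degrees of freedom. Adjusted p-values are Benjamini-Hochberg over all genes tested. The study's tool was DESeq2, run here as version 1.42.0 beside limma 3.58.1, other scaling, other filters and leaving out each pool. Per the study's methods the MON and UON came from the same mice. Female minus male differences, centred over groups, correlated between MON and UON at -0.05 to 0.11 across genes, and a fit with the mouse pool as a block was added. The tests were checked on simulated data with a smaller spread between pools than these data had. That check therefore does not measure power or error at the real spread. Depth was 17757595 to 78054205 counts, and no technical replicate separates counting error from the spread between pools.

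The samples, gene lists and tests were chosen with earlier results of these data known. The genes named are the 4 members of each list with the highest mean CPM, the keratins with Dsc2, and genes that the study named for glaucoma nerves. The latter are Timp1, Fcgr3, Cd68, Fcrls, Pla2g3, Olig2, Tsc22d3 and Gfap, of which the study named Gfap as not increased. Some members of these lists are not reported here. Any other gene named was chosen after its values were seen.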

Additional observations from a re-analysis of the deposited data

Results flagged for a closer look

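Red blood cell genes differed in opposite directions in the sexes. The log2 ratio of their summed level, 6 weeks over naive, was -1.64 between the female pools and 0.90 between the male pools, from sums of 504 and 161 CPM in females and of 443 and 828 CPM in males. The difference between the sexes was not tested, since each sex had 1 pool in each group. The 4 most abundant members, Hba-a1, Hba-a2, Hbb-bs and Hbb-bt, each had overlapping groups, with fitted log2 fold changes from -0.16 to 0.04.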

How the results depend on the processing

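The count of called genes was 0 in each of the 4 comparisons with edgeR and also with RLE size factors or a filter of at least 1 CPM in 2 libraries, and for 6 weeks against naive with limma on log2(FPKM + 1). DESeq2 gave 65 calls against naive, 90 against 2 weeks, 186 against 3 days and 27 for the difference between MON and UON. With no filter on low counts, edgeR gave 8, 6, 27 and 1 calls in the same order. Against naive it gave 2 calls with all 12 MON libraries (mt-Nd1 and mt-Atp6) and 12 with only the 4 libraries, of which 9 were over 10 times higher in the 6-week female pool than in the male pool. An alternative added after seeing the data left out the 6-week female and 2-week male pools and gave 39 calls, 20 higher and 19 lower, 0 of the 20 from that set of female-high genes. Leaving out those genes instead, also added after seeing the data, gave 0. Leaving out each pool in turn gave 0 to 39 calls against naive (1 without the naive female pool, 0 without the naive male pool, 10 without the 6-week female pool and 39 without the 6-week male pool), 3 to 21 against 2 weeks, 0 to 55 against 3 days and 0 to 3 for the difference between MON and UON. The lone pool that remains in a group is assumed to vary like the other groups. Calls in such fits could rest on that pool alone. Those made without the 6-week male pool included Krt5, Krt13 and Dsc2, and the sign of Gm29216 depended on which 6-week pool was left out. Between MON groups no paired analysis was possible because they held different mice and the labels give no replicate numbers. Without the sex term the count stayed at 0 in each comparison. For the difference between MON and UON, the mouse pool as a replicate block, added after seeing the data, also gave 0 calls.

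Of 2832 values for 205 named genes under the alternatives, 25 values of 19 genes were called, and 60 values in 43 of 126 genes with a log2 fold change of at least 0.3 in size had the other sign. Why settings differ was not tested. With 2 pools a group, a gene above 10 CPM had a typical 95% interval of 0.62 to either side, and genes with lower counts a wider one. The naive male pool was the shallowest, at 17757595 counts. List medians of the phagocytic microglial, cell cycle and interferon lists depended on which naive pool was kept, whereas the lysosomal median stayed within 0.33 to 0.45.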

Other observations

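Circadian clock genes differed between the naive pools rather than between groups: their summed level was 1118 and 771 CPM in the naive female and male pools and 981 and 1061 CPM at 6 weeks. Both 6-week pools lay above both 2-week pools for 8 of 15 clock genes (median 0.42), against 21.3% of all genes, and above both 3-day pools for 7 (0.40), against 18.0%. The time of day of collection was not given in the sources used here.

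Some genes were present in 1 library of a group and listed at 0 in the other at considerable level. Purb, a single-stranded DNA-binding protein, was at 61.8 CPM in the naive male pool and listed at 0 in the naive female and both 6-week pools. The mitochondrial genes mt-Nd1 and mt-Atp6 were present only in the naive female pool of these 4 libraries. Whether reads were assigned to other gene models in the remaining libraries was not tested.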
